A study of Mus musculus with 3 samples.

Results

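Microglia nuclei were the 243 of 12549 nuclei with at least 3 unique molecular identifiers (UMIs, 1 for each captured RNA molecule) summed over Inpp5d, Ptprc, Fyb and Adgre1. They also had fewer than 3 UMIs summed over the cell cycle genes Top2a, Mki67, Kif11 and Knl1. They came from 3 single-nucleus libraries of differentiated neurosphere cultures: 138 of 4884 nuclei in the control library, 60 of 3017 in the CBP-ablated library and 45 of 4648 in the p300-ablated library. Because the members were chosen by measured UMIs of the 4 myeloid genes, those genes are given as a description of the selection and support nothing here.

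The cultures were started from the subventricular zone of newborn C57BL/6 mice, grown as floating neurospheres, and differentiated until day 15 in vitro. According to the study's methods, CBP-ablated cultures carried floxed alleles of Crebbp (genotype label CBPf/f) and p300-ablated cultures carried floxed alleles of Ep300 (p300f/f), both infected with a lentivirus for Cre and mCherry, and control cultures received a lentivirus for RFP. The labels name tamoxifen as the treatment of all 3 samples, which the methods do not mention. The methods describe neurospheres from the floxed lines infected with either virus, and which of these lines gave the sequenced control cultures is not stated. Each library was 1 pool of about 15 cultures, and its nuclei were sorted for RFP or mCherry before capture, so there was 1 library for each condition and no replicate. No test between conditions was therefore made. All intervals are 95% intervals for counting error alone, and both ablated libraries were compared with the same control library.

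Microglia are the resident macrophages of the brain parenchyma. They arise from yolk sac precursors rather than from the neural stem cells that form neurospheres, depend on signals through the CSF1 receptor and TGF-beta, and are built on the myeloid transcription factors PU.1 (Spi1) and Runx1. In the intact brain they express sensing receptors such as P2ry12 and Cx3cr1, whereas in culture or around debris they take up lipid and turn on genes such as Gpnmb, Lgals3 and Apoe. CBP and p300 are paralogous lysine acetyltransferases that act as coactivators of transcription at enhancers.

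The microglia nuclei held 255229 UMIs in control, 127554 in CBP-ablated and 125247 in p300-ablated nuclei. They were shallower than the nuclei around them. The median microglia nucleus had 1467 UMIs in control, 1389 in CBP-ablated and 1864 in p300-ablated nuclei, against 3239, 4040 and 3910 UMIs in all other nuclei of the same libraries. Levels are given as UMIs of a gene for each 1000000 UMIs of the summed microglia nuclei (counts per 1000000, CPM). A count of 0 allows a level of up to 11.8 CPM in control, 23.5 CPM in CBP-ablated and 24.0 CPM in p300-ablated microglia nuclei, taking 3 UMIs as the floor. Control and p300-ablated libraries shared 7 cell barcodes, control and CBP-ablated 3, and CBP-ablated and p300-ablated 1, and 1 control microglia nucleus carried a shared barcode.

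Myeloid genes that played no part in the selection followed it closely. Of these, 43 were summed: Pik3ap1 and Ly86, and the lists of homeostatic microglia genes, myeloid signalling genes and activating or inhibitory receptors. In control, their summed level was 212 CPM (205 to 220) in nuclei without a UMI of the 4 selecting genes and 16289 CPM (15547 to 17058) in nuclei with 12 or more. At least 3 UMIs of the 43 genes were present in 137 of the 138 selected control nuclei, in 59 of 60 from the CBP-ablated and in 44 of 45 from the p300-ablated library. All 4 selecting genes had a UMI in 50 of the control, 18 of the CBP-ablated and 17 of the p300-ablated microglia nuclei, and 1 gene alone carried the selection in 8, 2 and 1 nuclei.

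**Figure D1:**
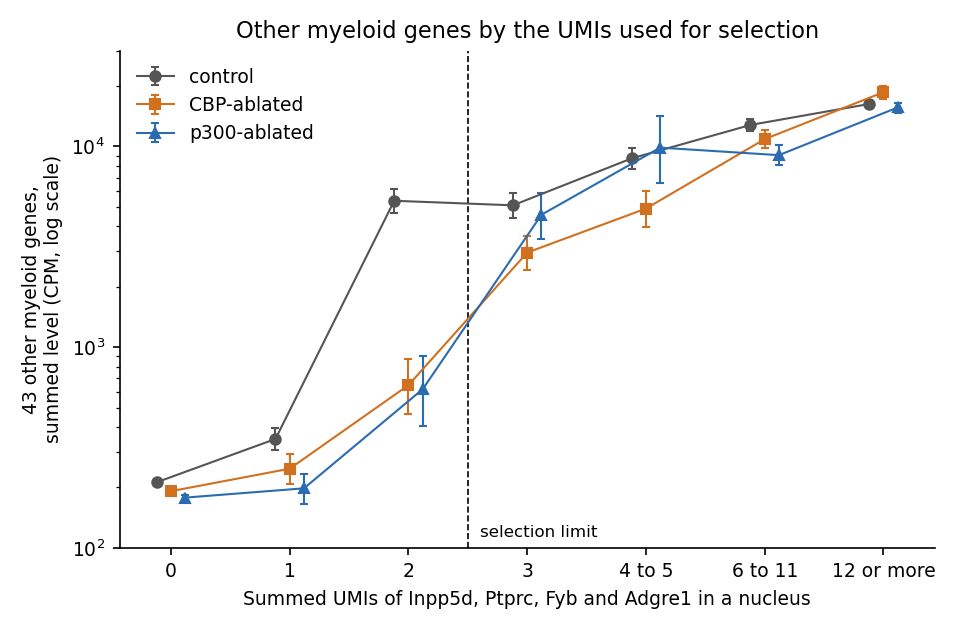
Summed level of 43 myeloid genes outside the selection (CPM, log scale) against the summed UMIs of the 4 selecting genes in a nucleus, for each library, in nuclei below the cell cycle limit. Points are levels with 95% Poisson intervals, and the dashed line marks the selection limit between 2 and 3 UMIs; the control nuclei with 2 UMIs sit at 5364 CPM, beside those with 3 UMIs at 5091 CPM.

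The limit separated the libraries differently. Just inside it, at 3 UMIs, were 22 control, 12 CBP-ablated and 7 p300-ablated nuclei, in which the 43 genes stood at 5091, 2961 and 4570 CPM. Just outside it, at 2 UMIs, were 27 control, 18 CBP-ablated and 11 p300-ablated nuclei, at 5364, 647 and 618 CPM. The 27 control nuclei at 2 UMIs had a median of 660 UMIs in all, and 22 of them had at least 3 UMIs of the 43 genes, so that the selection left out shallow control nuclei with a myeloid profile. In the CBP-ablated and p300-ablated libraries the nuclei at 2 UMIs were deeper, with medians of 3921 and 2693 UMIs.

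The selecting genes are given first, as a description. Fyb, an adaptor of integrin signalling (chromosome 15, 6522853 to 6663313, plus strand, GRCm38), was at 2637 CPM in control, 1968 CPM in CBP-ablated and 2946 CPM in p300-ablated microglia nuclei. Adgre1, which encodes F4/80 (chromosome 17, 57358691 to 57483527, plus strand), was at 1599, 1725 and 1796 CPM. Inpp5d, the lipid phosphatase SHIP (chromosome 1, 87620312 to 87720507, plus strand), was at 1211, 674 and 806 CPM, and Ptprc, which encodes CD45 (chromosome 1, 138062861 to 138175708, minus strand), at 823, 682 and 910 CPM. All 4 were thus present in each library, with Fyb contributing the most UMIs.

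Both markers given for the cells but not used to select them marked the microglia nuclei. Pik3ap1, an adaptor that links receptors to PI3 kinase, stood at 737 CPM in control, 706 CPM in CBP-ablated and 1182 CPM in p300-ablated microglia nuclei. In all other nuclei of the same libraries it was at 1.62, 1.43 and 2.03 CPM. Ly86, a partner protein of a Toll-like receptor family member, stood at 556, 361 and 671 CPM, against 1.43, 1.03 and 1.33 CPM elsewhere. Thus both markers were above the rest in every library, and their ranges inside and outside the selection did not overlap.

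Among the 217 genes with at least 300 UMIs in the microglia nuclei, the 10 with the largest fold over all other nuclei were Pik3ap1, Ptprc, Adgre1, Inpp5d, Fyb, Dock8, Stab1, Fli1, Igf1 and Lcp1. They include the 4 selecting genes, so the ranking is a description. Pik3ap1 was 485-fold above the other nuclei and Lcp1, which bundles actin in leukocytes, 183-fold. Dock8, an exchange factor for leukocyte migration, was 262-fold above, and Stab1, a scavenger receptor, 223-fold. Fli1, an ETS transcription factor of blood and endothelium, was 219-fold above, and the growth factor Igf1 201-fold.

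The transcription factors of the myeloid lineage were present in every library. Spi1, which encodes PU.1, was at 274 CPM in control, 188 CPM in CBP-ablated and 383 CPM in p300-ablated microglia nuclei, against 0.872, 0.396 and 0.587 CPM in all other nuclei. Runx1 was at 1144, 745 and 1421 CPM, and the lymphoid and myeloid factor Ikzf1 at 564, 463 and 599 CPM. No library lacked any of the 3 factors. Irf8, Itgam and Myd88, which are normally abundant in microglia, had 0 UMIs in all 12549 nuclei, as opposed to low values in the microglia nuclei alone.

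The homeostatic microglia genes divided into those detected well and those near the floor. Fcrls, an Fc receptor-like molecule, was at 317 CPM in control, 259 CPM in CBP-ablated and 367 CPM in p300-ablated microglia nuclei. The fractalkine receptor Cx3cr1 was at 317, 227 and 248 CPM and the CSF1 receptor Csf1r at 306, 251 and 192 CPM. These 3 genes were thus present in every library. By contrast, Tmem119 had 4, 5 and 2 UMIs, Sall1 had 2, 2 and 1, Gpr34 had 3, 1 and 1, P2ry13 had 1, 0 and 0, and Slc2a5 had 0, 1 and 0 UMIs in control, CBP-ablated and p300-ablated microglia nuclei. Siglech had no UMI in any of them.

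Genes of other macrophages showed a similar division. Of 11 genes of border macrophages, which line the meninges and vessels, Stab1, Ms4a7, F13a1 and Dab2 were well detected, but 42 of the 43 p300-ablated F13a1 UMIs were in 1 nucleus. Ms4a7 was at 388 CPM in control, 212 CPM in CBP-ablated and 327 CPM in p300-ablated microglia nuclei. The genes that usually define these cells were at or near 0: Mrc1 had 7, 1 and 1 UMIs, Pf4 had 0, 1 and 0, and Lyve1, Cd163, Cbr2 and Cd209f had none. The study's dissection removed meninges and vessels before culture. All 6 genes of monocytes and neutrophils, including Ccr2, Ly6c2 and S100a8, had 0 UMIs in the microglia nuclei of all 3 libraries. The nuclei therefore held a macrophage profile with some genes of microglia, and the near absence of Tmem119, Sall1 and Siglech means that these genes did not separate microglia from other tissue macrophages at this depth.

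Lymphocyte and mast cell genes summed to 31.3 CPM in control, 7.84 CPM in CBP-ablated and 31.9 CPM in p300-ablated microglia nuclei, with the T cell genes Cd3e and Cd3g at 0. Endothelial genes summed to 161, 212 and 192 CPM, above the 43.4, 63.9 and 36.2 CPM of all other nuclei. Of these genes Tek had the most UMIs over the 3 libraries, while Cldn5, Kdr, Cdh5 and Emcn were at 0. Of the 8 pericyte and fibroblast genes, 1 UMI of Pdgfrb was found in control and none elsewhere. Thus the genes that most narrowly mark blood vessels and T cells were at 0, and Tek, Flt1 and Pecam1, of which Pecam1 is also expressed by macrophages, had between 3 and 19 UMIs in a library.

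**Figure D2:**
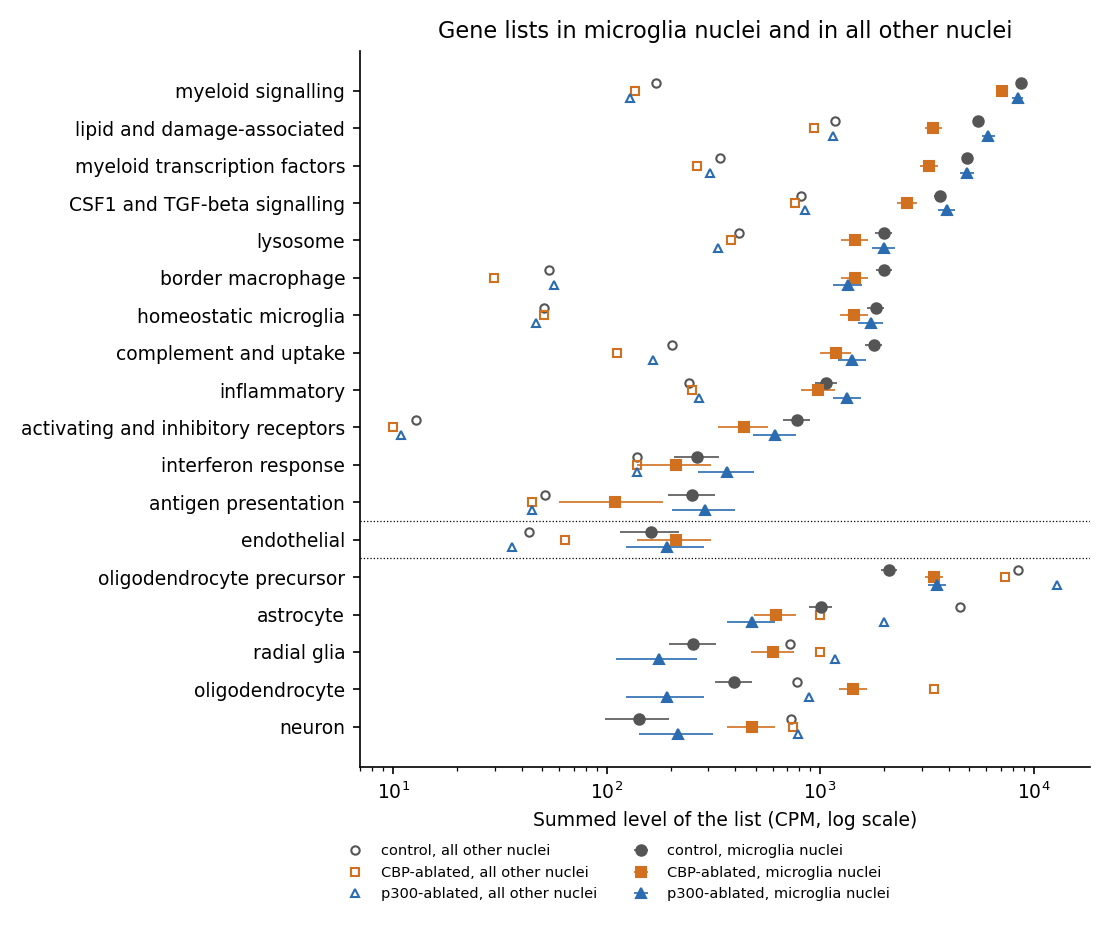
Summed level of each gene list (CPM, log scale) in the microglia nuclei (filled, with 95% Poisson intervals) and in all other nuclei (open) of the 3 libraries. Myeloid signalling genes stand at 7111 to 8765 CPM in microglia nuclei and at 128 to 170 CPM elsewhere, whereas the 5 lists of glial and neuronal genes below the lower dotted line stand lower in microglia nuclei than in the other nuclei of the same library.

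In the microglia nuclei 4 of 14 antigen presentation, 3 of 16 interferon response and 4 of 21 inflammatory genes had no UMI. The 4 MHC class II genes H2-Aa, H2-Ab1, H2-Eb1 and Cd74 had 0 UMIs in all microglia nuclei, and the antigen presentation list as a whole summed to 251 CPM in control, 110 CPM in CBP-ablated and 287 CPM in p300-ablated nuclei. The interferon response list summed to 266, 212 and 367 CPM, with Ifit1, Rsad2 and Ifi44 at 0. In the inflammatory list, Il6, Cxcl10 and Nos2 were at 0, and the most abundant gene was Nfkb1, a subunit of NF-kappaB, at 396, 337 and 527 CPM. The cytokine Tnf, chosen after its values were seen, had 19, 6 and 5 UMIs.

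Of 16 lipid-handling and damage-associated genes, 14 were detected in the microglia nuclei, though not all of them well in every library. Spp1, for example, had 2 UMIs in CBP-ablated nuclei. The list summed to 5517 CPM in control, 3395 CPM in CBP-ablated and 6124 CPM in p300-ablated microglia nuclei. Abca1, the exporter that loads cholesterol onto lipoproteins, was at 1583, 1262 and 1780 CPM and present in 100, 48 and 35 nuclei. Igf1 was at 784, 447 and 822 CPM and the second sterol exporter, Abcg1, at 380, 361 and 415 CPM. Itgax and Cst7, which mark microglia around amyloid, had no UMI. Lysosomal genes summed to 1983, 1450 and 1988 CPM, led by the cathepsin Ctsb at 454, 298 and 431 CPM.

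The share of microglia nuclei was lower in both ablated libraries. Microglia nuclei made up 2.83% (Clopper-Pearson interval 2.38 to 3.33) of all nuclei in control, 1.99% (interval 1.52 to 2.55) in the CBP-ablated library and 0.968% (interval 0.707 to 1.29) in the p300-ablated library. Relative to control, the share differed by -0.837 percentage points (-1.51 to -0.129, Newcombe interval) for the CBP-ablated and by -1.86 points (-2.42 to -1.32) for the p300-ablated library. A nucleus with more UMIs passes the limit more easily, so each nucleus was also thinned to 1500 UMIs and shallower nuclei were left out, which removed 74 control, 32 CBP-ablated and 16 p300-ablated members. At that depth the shares were 1.19%, 0.787% and 0.665%. The difference was then -0.399 points (-0.840 to 0.0783) in the CBP-ablated library, an interval that includes 0, and the p300-ablated library differed by -0.522 points (-0.928 to -0.128). Nuclei were sorted by the viral reporter before capture, and whether infection, survival or the sort set these shares was not tested.

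Nuclei with both myeloid and cell cycle genes were outside the selection. Among nuclei with at least 3 UMIs of the myeloid genes, 8 of 146 in control (5.48%, 2.40 to 10.5), 1 of 61 in the CBP-ablated (1.64%, 0.0415 to 8.80) and 7 of 52 in the p300-ablated library (13.5%, 5.59 to 25.8) had 3 or more UMIs of the cycle genes. These intervals overlap. Some of the 7 p300-ablated nuclei had 124, 142, 127 and 131 UMIs of the 28 glial and neuronal genes described below. The rest had 4, 4 and 9. The highest control nucleus had 6 and the CBP-ablated nucleus 10. The p300-ablated nuclei with 124 and 142 had only 3 UMIs of the myeloid genes. The p300-ablated share thus includes nuclei with much RNA of other cell types.

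RNA of other cell types was present in the microglia nuclei, and its amount differed between libraries. The sum over 28 genes of astrocytes, oligodendrocyte precursors, oligodendrocytes, neurons and radial glia was 0.389% of the UMIs of microglia nuclei in control, 0.654% in CBP-ablated and 0.458% in p300-ablated nuclei. Relative to all other nuclei of the same library these values were 25.6%, 48.3% and 26.0%. The CBP-ablated microglia nuclei thus held the most. Lhfpl3, a gene of oligodendrocyte precursors, was the most abundant of the 28, at 1493, 2517 and 2371 CPM, and Mbp, which encodes a myelin protein, was at 223, 682 and 112 CPM.

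This RNA was uneven among the nuclei. At least 10 UMIs of the 28 genes were found in 13 control, 12 CBP-ablated and 7 p300-ablated microglia nuclei, called mixed nuclei here. Mixed nuclei were deeper, with medians of 3812, 4300 and 4621 UMIs, and held 20.4% of the UMIs of the control, 45.8% of the CBP-ablated and 28.1% of the p300-ablated microglia nuclei. The highest nuclei had 103, 113 and 92 UMIs of the 28 genes. A doublet caller marked 7, 3 and 2 microglia nuclei. Without the mixed nuclei, the level of the 28 genes was 11.8%, 21.4% and 12.03% of that in the other nuclei. For the genes and lists described most fully below, ratios are therefore also given without the mixed nuclei.

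**Figure D3:**
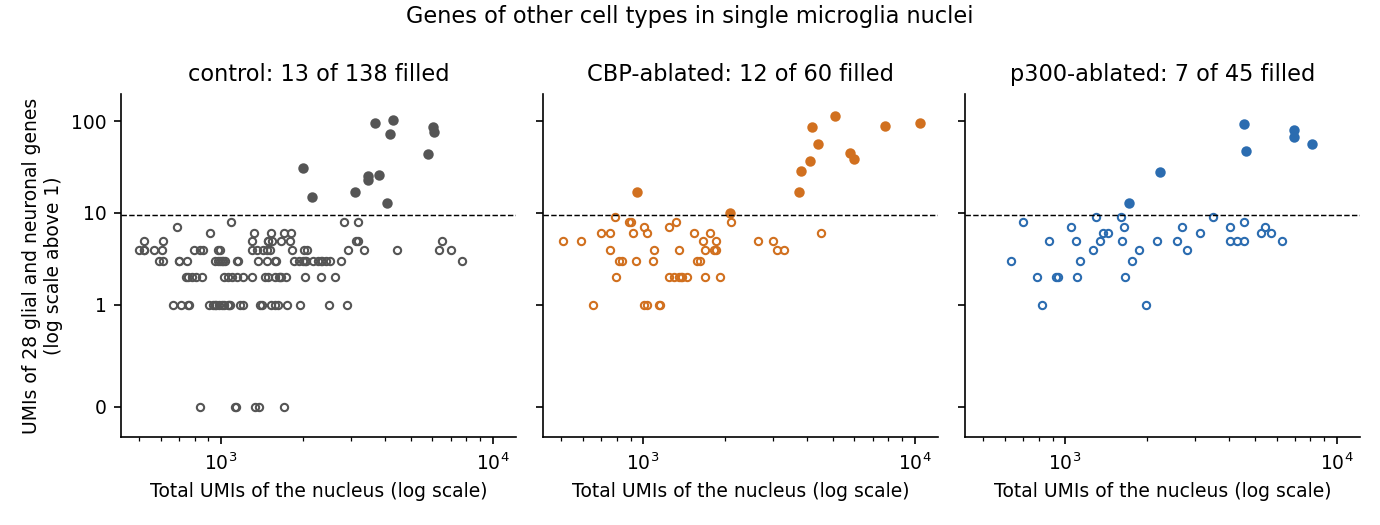
UMIs of 28 glial and neuronal genes (vertical axis, log scale above 1) against total UMIs (log scale) of each microglia nucleus, in 1 panel for each library. Filled points are the mixed nuclei, with at least 10 UMIs of these genes (dashed line): 13 nuclei in control, 12 with CBP ablated and 7 with p300 ablated, with medians of 3812, 4300 and 4621 total UMIs.

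CBP-ablated microglia nuclei were compared with control for the 1676 genes with at least 50 UMIs in both libraries together. A log2 ratio of CPM above 1 was found for 109 genes (6.5%) and a ratio below -1 for 59 genes (3.52%), around a median of -0.07. Without the mixed nuclei 37 genes (3.25%) were higher and 34 (2.99%) lower, of 1138. Of the 109 higher genes, 102 lay below the level of the other nuclei in control, as did 475 of all 1676 ranked genes. With RNA of the profile of the other nuclei subtracted at the share given by the 28 genes, an alternative added after seeing the data, 134 genes were higher and 164 lower, and 56 genes were left at or under the floor of 3 UMIs in both libraries and had no ratio. That subtraction kept 75.9% of the control and 55.0% of the CBP-ablated UMIs.

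The 8 largest ratios belonged to Zfp536, Slc24a2, Pex5l, Fam13c, Ank3, Frmd5, Kirrel3 and Asic2, between 2.42 and 4.00 on the log2 scale. Without mixed nuclei the same genes had ratios between 1.43 and 3.36, with Kirrel3 at 1.43 (0.55 to 2.31), Pex5l at 1.84 (0.43 to 3.29), Frmd5 at 1.91 (0.95 to 2.88) and Asic2 at 1.55 (-1.35 to 4.45), an interval that includes 0. The subtraction left Frmd5 with 4.61 UMIs in control and 39.8 in CBP-ablated microglia nuclei, a ratio of 4.58. It left the other 7 genes with none in control and between 1.39 (Ank3) and 64.3 (Kirrel3) in CBP-ablated nuclei, so that they had no ratio. Slc24a2, a sodium and calcium exchanger of neurons, had 17 UMIs in control microglia nuclei and 86 UMIs in CBP-ablated ones, a log2 ratio of 3.34 (2.58 to 4.18), or 3.22 (1.84 to 4.83) without mixed nuclei. In all other nuclei it stood at 371 and 1257 CPM, above its 66.6 and 674 CPM in microglia nuclei. Ratios in all other nuclei were 1.92 for Zfp536, 1.76 for Slc24a2, 1.55 for Fam13c, 1.53 for Frmd5 and 1.32 for Pex5l. They were 0.80 for Ank3, 0.78 for Kirrel3 and -0.25 for Asic2, so that 7 of the 8 genes were also higher there. Zfp536, a zinc finger repressor of neural differentiation, had 9 and 72 UMIs, of which 49 were in 1 CBP-ablated nucleus. Of the 40 Asic2 UMIs, 36 were in 1 nucleus, and the ratio without the nucleus of most UMIs in each library was 0.85. In the CBP-ablated library 7 of the 8 genes were below the level of the other nuclei; Asic2, at 314 CPM against 222 CPM, was the exception. The myelin gene Mbp, with a ratio of 1.61 (1.11 to 2.12), was also higher, and without mixed nuclei its ratio was 0.77. In the other nuclei of the same libraries the oligodendrocyte list had a ratio of 2.14.

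The 8 genes with the lowest ratios were Zfp981, Xdh, Mmp12, Gpnmb, Litaf, Fbxo42, Pla2g7 and Cpsf6. Gpnmb, a glycoprotein of lysosomes induced by lipid load (chromosome 6, 49036546 to 49070929, plus strand, GRCm38), had 225 UMIs in 26 control nuclei and 22 UMIs in 6 CBP-ablated nuclei, or 882 and 172 CPM, a log2 ratio of -2.35 (-3.06 to -1.72). Without mixed nuclei it was -2.00, without the nucleus of most UMIs in each library -2.44, and after thinning -0.22. In all other nuclei, where Gpnmb was at 11.4 CPM in control and 2.38 CPM in the CBP-ablated library, the ratio was -2.26. The UMIs were concentrated, with 167 of the 225 in 3 control nuclei. Mmp12, the macrophage elastase, had 72 UMIs in 5 control nuclei and 0 in CBP-ablated nuclei. That is 11.99-fold lower with the CBP-ablated nuclei set at the floor of 3 UMIs, and the upper limit of the log2 ratio was -3.25. However, 54 of the 72 were in 1 nucleus. Spp1 and Lgals3, chosen after their values were seen, had 33 against 2 UMIs, a ratio of -3.04 (-6.15 to -1.08), and 68 against 13 UMIs, a ratio of -1.39 (-2.37 to -0.52). Without mixed nuclei these ratios were -2.49 (-5.60 to -0.52) and -0.93 (-1.95 to -0.03).

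Xdh and Zfp981 were spread over more nuclei. Xdh, which encodes the enzyme that forms uric acid, had 50 UMIs in 29 control nuclei and 1 UMI in the CBP-ablated microglia nuclei, a log2 ratio of -4.64 (-9.98 to -2.10). In p300-ablated microglia nuclei it had 12 UMIs. Zfp981 (chromosome 4, 146502027 to 146539395, plus strand) had 78 UMIs in 46 control nuclei, 1 in CBP-ablated and 51 in p300-ablated microglia nuclei, a ratio of -5.28 (-10.6 to -2.76) in the CBP-ablated library. It was also lower in all other nuclei of the CBP-ablated library, with a ratio of -1.84, and it belongs to a family of similar zinc finger genes among which reads can be split. The other genes were Litaf, a lysosomal membrane protein, at -2.14 (-3.65 to -0.93), or -0.96 after thinning, Fbxo42 at -1.97, Pla2g7, a phospholipase of macrophages that hydrolyses platelet-activating factor, at -1.83 (-2.89 to -0.91), and Cpsf6 at -1.78. In all other nuclei Pla2g7 had a ratio of -1.50 (-1.60 to -1.40), whereas Litaf, Fbxo42 and Cpsf6 had ratios of 0.71, 0.26 and 0.08. Without the mixed nuclei Xdh, Gpnmb, Litaf, Fbxo42, Pla2g7 and Cpsf6 had ratios between -4.09 and -1.45, and Zfp981 had no UMI left in the CBP-ablated library.

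**Figure D4:**
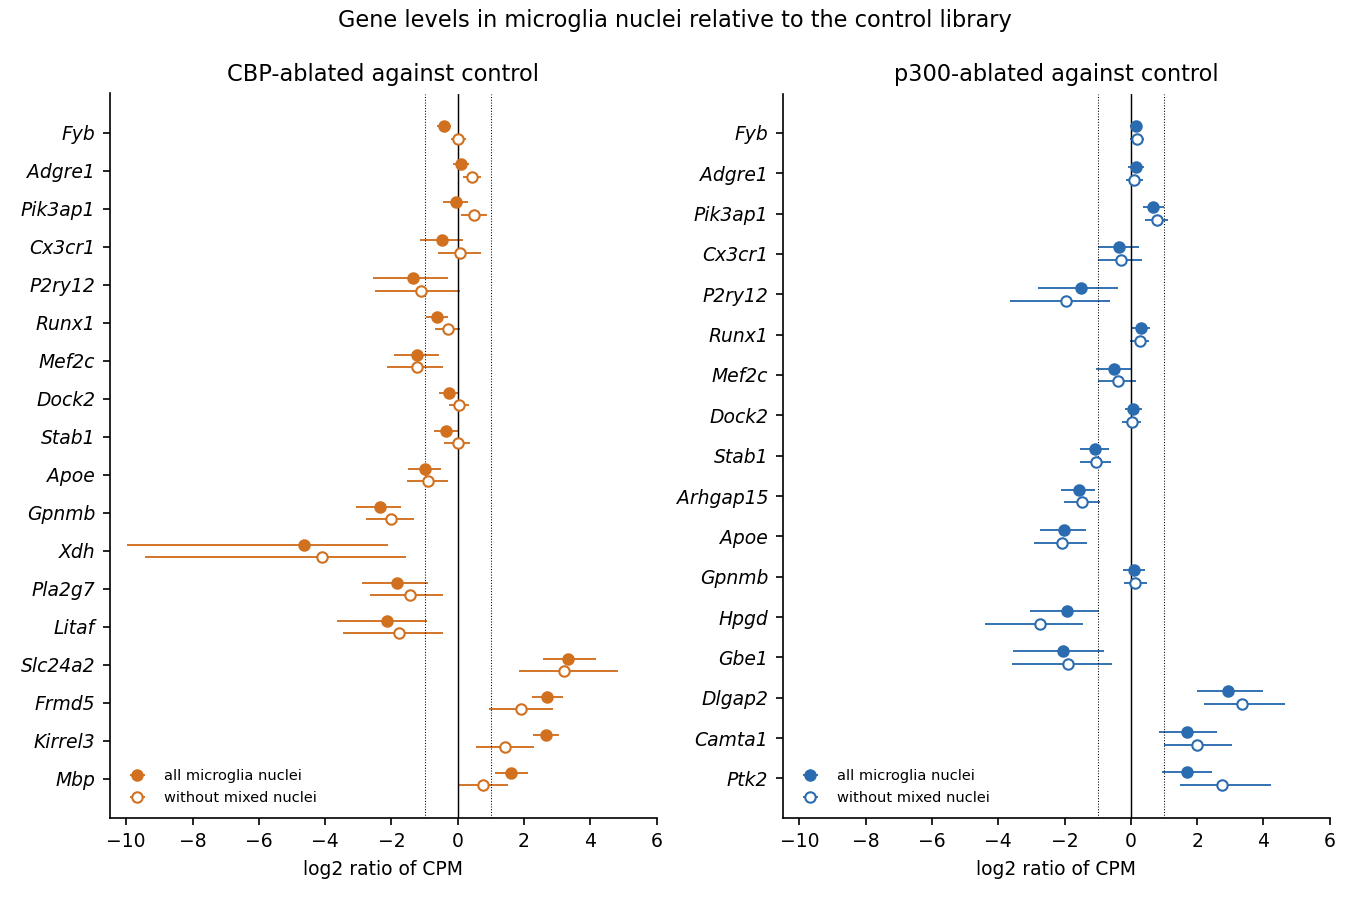
Log2 ratio of CPM to the control library in all microglia nuclei (filled) and without mixed nuclei (open), with 95% conditional binomial intervals; dotted lines mark a 2-fold difference. In the CBP-ablated panel Fyb, Cx3cr1, Dock2 and Stab1 lie between the dotted lines under both settings, whereas P2ry12, Mef2c and Gpnmb lie below -1; in the p300-ablated panel Apoe lies at -2.02 and -2.08.

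The lists of microglia genes stand beside the 6.5% of all ranked genes that were higher and the 3.52% that were lower in the CBP-ablated library. With at most 13 ranked genes in a list, 1 gene is a larger share than these, so the counts are given as a description. In the myeloid signalling list 0 of 13 ranked genes were past 2-fold, with a median of -0.28 that became 0.11 without mixed nuclei. In the homeostatic list 1 of 5 was lower, P2ry12, with 46 against 9 UMIs and a ratio of -1.35 (-2.57 to -0.30), or -1.10 (-2.49 to 0.06) without mixed nuclei, and the median went from -0.29 to 0.13. In the list of myeloid transcription factors 1 of 6 was lower, Mef2c, with 112 against 24 UMIs and a ratio of -1.22 (-1.92 to -0.58), or -1.24 without mixed nuclei. The lipid and damage-associated list had 2 of 9 lower, Gpnmb and Lgals3, or 1 of 8 without mixed nuclei, and a median of -0.70, or -0.34 without mixed nuclei, against -0.07 and 0.0011 over all ranked genes. Its sum was lower under both settings, with ratios of -0.70 (-0.86 to -0.54) and -0.52 (-0.70 to -0.34).

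Activating and inhibitory receptors summed to 776 CPM in control and 439 CPM in CBP-ablated microglia nuclei, a ratio of -0.82 (-1.28 to -0.39), or -0.41 (-0.91 to 0.07) without mixed nuclei. The complement and uptake list had a ratio of -0.59 (-0.87 to -0.33), or -0.19 (-0.48 to 0.10) without mixed nuclei. Both intervals thus included 0 once the mixed nuclei were left out. In all other nuclei of the CBP-ablated library the receptor sum had a ratio of -0.35 and the complement and uptake sum -0.86. The costimulatory molecule Cd86 had 23 UMIs in control and 2 in CBP-ablated microglia nuclei, a ratio of -2.52 (-5.65 to -0.51), or -1.97 (-5.10 to 0.05) without mixed nuclei. Among genes of CSF1 and TGF-beta signalling, 1 of 7 was lower, Smad3, with 41 against 10 UMIs and a ratio of -1.03 (-2.20 to -0.01), or -0.28 without mixed nuclei. The TGF-beta receptor Tgfbr1 had a ratio of -0.51 (-0.84 to -0.19), or -0.16 without mixed nuclei. Of 4 ranked lysosome genes and 2 ranked inflammatory genes none was past 2-fold. Without mixed nuclei 1 of the inflammatory genes was higher, Nfkbiz, an NF-kappaB cofactor, at 1.09 (0.39 to 1.78), and the sum of that list went from -0.13 (-0.44 to 0.18) to 0.38 (0.04 to 0.71). The scavenger receptor Cd36, with 38 against 3 UMIs, was under the minimum for ranking and had a ratio of -2.66 (-5.00 to -1.01), or -2.69 without mixed nuclei, and in all other nuclei of -3.52. Border macrophage genes had a median of -0.49, or -0.04 without mixed nuclei.

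P300-ablated microglia nuclei were compared with control for 1675 genes. A log2 ratio above 1 was found for 48 genes (2.87%) and one below -1 for 44 genes (2.63%), around a median of 0.01. Without mixed nuclei 31 (2.49%) were higher and 29 (2.33%) lower, of 1246. Of the 48 higher genes, 23 lay below the level of the other nuclei in control, as did 428 of all 1675 ranked genes. The same subtraction gave 123 higher and 113 lower genes.

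Among the lowest ratios were those of Grm7, Gbe1, Apoe, Hpgd, Mfhas1, Col11a1 and Serpine2. Apoe, the lipid carrier made by microglia and astrocytes (chromosome 7, 19696109 to 19699188, minus strand), had 173 UMIs in 81 of 138 control nuclei and 21 UMIs in 16 of 45 p300-ablated nuclei. Its level was 678 CPM in control, 345 CPM in CBP-ablated and 168 CPM in p300-ablated microglia nuclei, a log2 ratio of -2.02 (-2.74 to -1.36) in the p300-ablated library. Both ablated libraries were thus below control. The ratio was -2.08 without mixed nuclei and -2.18 after thinning. Apoe was also lower in all other nuclei of the p300-ablated library, at 87.1 against 336 CPM (ratio -1.95), and the ratio in microglia nuclei was -2.03 once RNA with the profile of the other nuclei was subtracted at the share given by the 28 genes.

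Other genes were lower as well. Hpgd, which degrades prostaglandins, had 77 UMIs in 47 control nuclei, 34 in 15 CBP-ablated nuclei and 10 in 6 p300-ablated nuclei, a ratio of -1.92 (-3.03 to -0.96) in the p300-ablated library, or -2.73 without mixed nuclei. Gbe1, the glycogen branching enzyme, had 50, 8 and 6 UMIs, and Mfhas1 had 51, 8 and 7. Both genes were below control in both ablated libraries. Without mixed nuclei their ratios were -1.90 (-3.59 to -0.56) and -1.53 (-3.06 to -0.28) in the p300-ablated library, but -1.03 (-2.43 to 0.14) and -0.92 (-2.33 to 0.25) in the CBP-ablated library, where the intervals include 0. Hpgd had a CBP-ablated ratio of -0.18 (-0.81 to 0.42). In control, 52 of the 71 Grm7 UMIs and 31 of the 83 Col11a1 UMIs were in 1 nucleus each. Without the nucleus of most UMIs in each library their ratios were -3.06 and -1.34. Grm7 was at -2.53 (-7.94 to 0.21) without mixed nuclei and at 0.87 (-5.42 to 7.17) after thinning. Serpine2 had a ratio of -1.63 (-3.02 to -0.46), or -1.26 (-2.99 to 0.14) without mixed nuclei and 0 after thinning. Without mixed nuclei the intervals of Grm7 and Serpine2 thus include 0. Col11a1 changed sign without mixed nuclei, at 0.44.

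Arhgap15, Stab1 and P2ry12 were the members of the microglia lists past 2-fold on the lower side beside Apoe. Arhgap15, a Rac GTPase-activating protein of leukocytes (chromosome 2, 43748824 to 44395953, plus strand), had 225 UMIs in 84 control nuclei, 81 in 31 CBP-ablated nuclei and 37 in 13 p300-ablated nuclei. The p300-ablated ratio was -1.58 (-2.12 to -1.07), and -1.46 without mixed nuclei. The scavenger receptor Stab1 was at 917 CPM in control, 721 CPM in CBP-ablated and 431 CPM in p300-ablated microglia nuclei, with a p300-ablated ratio of -1.09 (-1.54 to -0.66), and -1.05 without mixed nuclei. P2ry12, the purinergic receptor that guides microglial processes to injury, was at 180, 70.6 and 63.9 CPM and had a ratio of -1.50 (-2.79 to -0.40), or -1.97 (-3.66 to -0.63) without mixed nuclei. In all other nuclei the p300-ablated ratios of the 3 genes were -0.47, -1.64 and -0.07.

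The 8 largest ratios in the p300-ablated library were those of Hmga2, Dlgap2, Lrrtm4, Camta1, Abtb2, Ptk2, Rbfox1 and Fam155a. Hmga2, a chromatin protein of proliferating cells, had 0 UMIs in control and 53 in p300-ablated microglia nuclei. That is 36.0-fold higher with control set at the floor of 3 UMIs, and the lower limit of the log2 ratio was 4.82. However, 49 of the 53 were in 1 nucleus and the other 4 in 2 nuclei. Dlgap2, a scaffold of synapses, had 12 UMIs in 5 control nuclei and 45 in 12 p300-ablated nuclei, a ratio of 2.93 (1.99 to 3.99), or 3.34 without mixed nuclei. Camta1 had 20 UMIs in 20 control nuclei and 32 in 19 p300-ablated nuclei, a ratio of 1.71 (0.85 to 2.59), or 2.01 without mixed nuclei. Camta1, Lrrtm4, Abtb2, Ptk2, Rbfox1 and Fam155a were below the level of all other nuclei in both libraries, with Fam155a at 149 and 455 CPM in microglia nuclei against 1228 and 2006 CPM elsewhere. Subtraction of RNA with the profile of the other nuclei left Lrrtm4, Abtb2, Ptk2, Rbfox1 and Fam155a with none in control, and with 4.87, 20.3, 29.4, 32.5 and 0 UMIs in p300-ablated microglia nuclei. Dlgap2 kept a ratio of 3.24 there. Without mixed nuclei the ratio of Abtb2 was 0.69 (-1.31 to 2.56), an interval that includes 0. Of the 63 Rbfox1 UMIs, 43 were in 1 nucleus, and without the nucleus of most UMIs in each library the ratio was 0.51.

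Between 0 and 2 genes of each microglia list were past 2-fold in the p300-ablated library, beside 2.87% higher and 2.63% lower of all ranked genes, and in lists this short 1 gene is a larger share than these. The myeloid signalling list had 1 of 13 genes past 2-fold, Arhgap15, and a median of -0.05. The homeostatic list had 1 of 5, P2ry12, and a median of -0.36, or 0 of 4 and -0.13 without mixed nuclei, where P2ry12 was under the minimum for ranking. The transcription factors had 0 of 6 and a median of 0.02, and the CSF1 and TGF-beta list 0 of 8 and a median of -0.09. Border macrophage genes had 1 of 4, Stab1, and their sum had a ratio of -0.56 (-0.82 to -0.30), or -0.48 (-0.75 to -0.21) without mixed nuclei. The complement and uptake list had 0 of 2 and a ratio of its sum of -0.34 (-0.60 to -0.08), and -0.34 (-0.62 to -0.06) without mixed nuclei. Both sums were thus below control under both settings. In all other nuclei of the p300-ablated library the complement and uptake sum had a ratio of -0.30 (-0.37 to -0.23). The border macrophage sum there had a ratio of 0.08 (-0.05 to 0.21). The inflammatory list had 0 of 2 and a sum at 0.33 (0.04 to 0.61), or 0.43 (0.12 to 0.73) without mixed nuclei. The lipid and damage-associated list had a median of 0.29, with Apoe lower and Spp1 higher; Spp1, which encodes osteopontin, had 33 UMIs in 18 control nuclei and 44 in 5 p300-ablated nuclei, 23 of them in 1 nucleus, a ratio of 1.44 (0.76 to 2.14), or 1.52 without mixed nuclei. The astrocyte genes Gpc5 and Slc1a3 were lower and the oligodendrocyte precursor gene Pcdh15 higher, with ratios of -1.01, -1.40 and 1.14, or -1.38, -0.07 and 0.41 without mixed nuclei. After thinning, Gpc5 was at 0.37 (-0.83 to 1.52).

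The floxed genes themselves were not past 2-fold in the microglia nuclei. Crebbp (chromosome 16, 4081328 to 4213997, minus strand) had 105 UMIs in control, 52 in CBP-ablated and 73 in p300-ablated microglia nuclei, or 411, 408 and 583 CPM. The log2 ratio to control was -0.01 (-0.52 to 0.48) in the CBP-ablated library. Ep300 (chromosome 15, 81585351 to 81652077, plus strand) had 49, 29 and 23 UMIs, or 192, 227 and 184 CPM, with a ratio of -0.06 (-0.85 to 0.68) in the p300-ablated library. UMIs were counted over the whole gene from its 3′ end, so these levels do not show whether the floxed exon was removed in the microglia nuclei. Of the 9 lysine acetyltransferase genes, 5 were ranked in each comparison and none was past 2-fold.

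A subset of microglia nuclei, described after its values were seen, carried Gpnmb. A UMI of Gpnmb was found in 26 of 138 control nuclei (18.8%, 12.7 to 26.4), 6 of 60 CBP-ablated nuclei (10.0%, 3.76 to 20.5) and 11 of 45 p300-ablated nuclei (24.4%, 12.9 to 39.5), against 1.16%, 0.845% and 1.63% of all other nuclei. The difference from control was -8.84 points (-17.9 to 2.77) in CBP-ablated and 5.60 points (interval -6.97 to 20.9) in p300-ablated nuclei, and both intervals include 0. Nuclei with a Gpnmb UMI were deeper, with medians of 2009, 1969 and 3512 UMIs against 1370, 1370 and 1693, and a deeper nucleus shows a UMI more easily.

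Some other lipid and debris genes were higher in the Gpnmb nuclei of all 3 libraries, and others were not. Lgals3, which encodes galectin-3 and binds damaged lysosomes, was at 795 CPM in control nuclei with Gpnmb and 79.5 CPM in those without, at 545 and 52.3 CPM in CBP-ablated and at 1323 and 47.4 CPM in p300-ablated nuclei. Plin2, which coats lipid droplets, was at 1096 against 42.4 CPM in control, 934 against 113 CPM in CBP-ablated and 1127 against 107 CPM in p300-ablated nuclei. Abca1 was at 2956 against 1098 CPM, 2180 against 1159 CPM and 3063 against 1161 CPM. For these 3 genes the intervals of the 2 subsets did not overlap in any library, but their UMIs came from part of the nuclei, with Lgals3 found in 9 of the 26 control nuclei with Gpnmb, in 3 of the 6 from the CBP-ablated and in 5 of the 11 from the p300-ablated library. Plin2 was found in 12, 2 and 8 of these nuclei, so its 12 CBP-ablated UMIs came from 2 nuclei. The intervals cover counting error alone and not the spread between nuclei. Lpl, the lipoprotein lipase, was at 375 CPM with Gpnmb and 175 CPM without in control, at 0 UMIs and 192 CPM in the CBP-ablated library and at 466 and 391 CPM in the p300-ablated library. Spp1 was at 315 and 63.6 CPM in control, at 0 UMIs and 17.4 CPM in the CBP-ablated library and at 515 and 272 CPM in the p300-ablated library.

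Levels of some homeostatic receptors were lower in the same nuclei, though not beyond the intervals in every library. Fcrls was at 105 CPM with Gpnmb and 392 CPM without in control, at 0 UMIs and 288 CPM in the CBP-ablated, and at 24.5 and 533 CPM in the p300-ablated library. Cx3cr1 was at 195 and 361 CPM, 0 UMIs and 253 CPM, and 49.0 and 343 CPM. Intervals of the 2 subsets overlapped for Fcrls in the CBP-ablated library and for Cx3cr1 in control and the CBP-ablated library. The lineage factor Runx1 was at 1111 and 1156 CPM in control, 856 and 732 CPM in CBP-ablated and 1716 and 1279 CPM in p300-ablated nuclei, with overlapping intervals. Apoe was at 795 CPM with Gpnmb and 636 CPM without in control, 545 and 323 CPM in CBP-ablated and 147 and 178 CPM in p300-ablated nuclei, with overlapping intervals in each library.

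**Figure D5:**
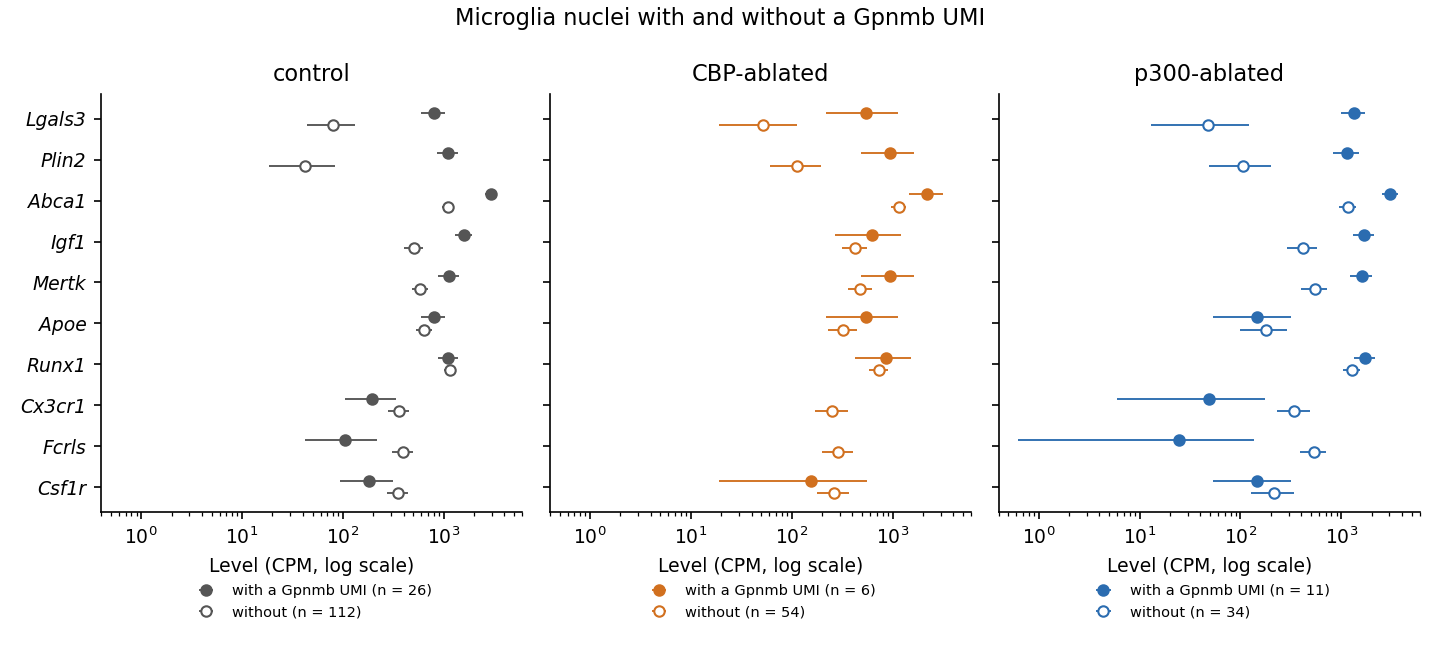
Level of 10 genes (CPM, log scale, 95% Poisson intervals) in microglia nuclei with a Gpnmb UMI (filled) and without one (open), in 1 panel for each library; genes with 0 UMIs in a subset have no point. Lgals3, Plin2 and Abca1 lie to the right in nuclei with Gpnmb in each library; Cx3cr1 and Fcrls have no point in the 6 CBP-ablated nuclei with Gpnmb.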

How the data were processed

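Single-nucleus RNA was measured in 3 libraries. The authors aligned the reads to GRCm38 (mm10) with Cell Ranger 3.1 and deposited the raw UMI count of each of 30559 genes in each nucleus, counted over exons and introns, without normalization. The library totals were 16312170 (control), 12748336 (CBP-ablated) and 18876682 UMIs (p300-ablated). All deposited nuclei were kept. The members and all gene lists were chosen with earlier results of these data known. Some genes of the lists and rankings are not reported here.

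UMIs of the microglia nuclei were summed for each library and divided by their total (CPM). Genes reaching 50 UMIs over both libraries of a comparison were ranked by log2 ratio, a 0 being ranked at 3 UMIs. With 1 library per condition, a gene past 2-fold is a description and no test was made. Intervals (95%) were exact Poisson for levels, Clopper-Pearson for shares, Newcombe for differences of shares and conditional binomial for ratios; the code was checked on simulated data. Doublets were scored with Scrublet in scanpy 1.11.5 (seed 1) and called at 0.8% for each 1000 nuclei. Python 3.11.15, numpy 2.4.6, scipy 1.17.1, pandas 2.3.3 and matplotlib 3.10.9 were used. Gene coordinates came from GENCODE M21.

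The genes named were Crebbp, Ep300, the 6 markers, up to 6 members of a list in order of their UMIs (and list members at 0), the 8 largest and 8 smallest ratios of a comparison, and the 10 leading genes with at least 300 UMIs. Members of lists outside that order, and the genes beside Gpnmb, were chosen after their values were seen. Alternatives were limits of 2 and 5 UMIs, no cycle limit, each selecting gene left out, no called doublets, at least 1500 UMIs, thinning to 1500 UMIs, no mixed nuclei, the mean over nuclei, centring, 5% and 10% free RNA, and minima of 20 and 100 UMIs. Free RNA at an estimated share (the level of the 28 glial and neuronal genes in microglia nuclei relative to the other nuclei, subtracted with the profile of those nuclei) and omission of the nucleus of most UMIs were added after seeing the data.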

Additional observations from a re-analysis of the deposited data

How the results depend on the processing

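The share of microglia nuclei was below control in both ablated libraries under every alternative run, with intervals that included 0 for the CBP-ablated library after thinning and with nuclei of at least 1500 UMIs (-0.422 points, -0.902 to 0.0953). For the p300-ablated library the difference was -1.23 points without Fyb, -0.738 with nuclei of at least 1500 UMIs and -0.522 after thinning. The counts of genes past 2-fold differed between settings, which also differed in how many genes were ranked, and are given next as higher and lower, for the CBP-ablated and then the p300-ablated library where they moved by over 1.5 times. At a limit of 2 UMIs they were 199 and 159, and 122 higher; at 5 UMIs, 47 higher. Without a cycle limit 101 were higher in the p300-ablated library, and without Inpp5d 71 in the CBP-ablated. After thinning they were 10 and 10, and 17 and 11; without mixed nuclei 37 and 34, and 31 and 29. With 10% free RNA 69 were lower in the p300-ablated library. With genes of at least 20 UMIs they were 317 and 294, and 200 and 257; with at least 100 UMIs, 49 and 14, and 12 and 12; with free RNA at the estimated share, 134 and 164, and 123 and 113, where 56 and 44 genes at or under the floor in both libraries had no ratio.

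Of 2206 ratios whose interval excluded 0, 44 changed sign, among them 13 after thinning, 11 with free RNA at the estimated share, 8 without mixed nuclei and 5 at a limit of 2 UMIs. Most were under 2-fold. In the CBP-ablated library the homeostatic sum went from -0.34 to 0.14 after thinning and 0.13 without mixed nuclei, the myeloid signalling sum from -0.30 to 0.11, Dock2 from -0.28 to 0.03 and Mertk from -0.46 to 0.09 without mixed nuclei, Abca1 from -0.33 to 0.33 after thinning, and the border macrophage sum from -0.45 to 0.01 with free RNA at the estimated share. In the p300-ablated library the lipid and damage-associated sum went from 0.15 to -0.24 at a limit of 2 UMIs, and after thinning Pik3ap1 went from 0.68 to -0.13 and Runx1 from 0.31 to -0.24. Ratios past 2-fold that changed sign were the following. The oligodendrocyte list was at 2.10 in the p300-ablated library at a limit of 2 UMIs and at -1.84 in the CBP-ablated library with free RNA at the estimated share. In the CBP-ablated library Grm7 was at -0.033 with a limit of 5 UMIs, -0.0036 without Ptprc and -1.44 with free RNA at the estimated share, and Abtb2 was at -0.064 after thinning. In the p300-ablated library Gpc5 was at 0.37 and Grm7 at 0.87 after thinning, and Col11a1 was at 0.44 without mixed nuclei. The cause of the other changes of sign was not tested. Thinning also left Gpnmb at -0.22 in the CBP-ablated library, and the mean over nuclei gave -1.32. Over 365 results and 17 alternatives there were 6015 values, the 2206 ratios among them. Of the 6015, 5522 stayed within the counting interval of the main value and 484 moved outside it. The other 9 were the changes of sign past 2-fold given above. Changes of sign under 2-fold are not among these 9 and are counted with the rest of the 6015. No paired analysis was possible because each condition had 1 library.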

Other observations

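Spag5, chosen after its values were seen, was higher in the microglia nuclei of both ablated libraries, with 30 UMIs in control, 54 in CBP-ablated and 38 in p300-ablated nuclei (118, 423 and 303 CPM). It was also higher in all other nuclei of the same libraries, with log2 ratios of 1.26 and 1.00. The unnamed transcript Gm42031 had 35 UMIs in 27 control nuclei, 0 in CBP-ablated and 42 UMIs in 20 p300-ablated microglia nuclei, which is at least 5.83-fold lower in the CBP-ablated library against the floor over the group.

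The pools held nuclei of both sexes. A UMI of Xist without one of 4 Y-linked genes was found in 76 control, 28 CBP-ablated and 18 p300-ablated microglia nuclei, a Y-linked UMI without Xist in 23, 8 and 12, and both in 8 (5.80%), 9 (15.0%) and 10 (22.2%). In all other nuclei both were found in 8.95%, 12.9% and 12.7%.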
